A study of Bos taurus with 11 samples.

Results

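The proteins of the cytosolic ribosome were followed through 306 of the 43653 non-control probes of a bovine oligonucleotide array. They were chosen by gene name: every probe whose name began with RPL or RPS and a digit was taken, ribosomal S6 kinases (RPS6K) were left out, and RPSA, RPLP0, RPLP1 and RPLP2 were added. The 306 probes carried 83 of the 25325 names in the array's gene name column: 46 of the large subunit, 34 of the small subunit and the 3 P-stalk proteins of the large subunit. The rule also caught genes that are not core ribosomal proteins, among them RPS19BP1, a binding partner of RPS19, and paralogs such as RPL3L and RPS27L. The RefSeq accession of 249 member probes was found in the RefSeq gene table, and it gave the same symbol for all 249.

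RNA came from endometrial biopsies of 11 cows (Bos taurus) taken on day 7 of the estrous cycle, 1 array per cow. The 6 fertile cows had conceived within 3 services by embryo transfer or artificial insemination before the biopsy, and again at the first transfer after it. The 5 subfertile cows had repeatedly failed to conceive although their genital tracts and cycles appeared normal. The labels name no treatment, and age and breed are not stated. Each difference below is subfertile minus fertile on the log2 scale.

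A ribosome is built from a small subunit, which reads the messenger RNA, and a large subunit, which joins amino acids into protein. Ribosomal protein mRNAs are among the most abundant in most tissues, and nearly all carry a pyrimidine tract at their start, through which mTOR signalling and LARP1 govern their translation together. Several of them, including RPLP0, RPS9, RPS18, RPL4, RPL13A and RPL19, are in common use as reference genes.

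The arrays differed between the groups before any gene was considered. The 75th percentile of log2 signal was 11.35 ± 0.63 (SD, n = 6) for fertile cows but 9.33 ± 0.26 (SD, n = 5) for subfertile cows, with no overlap. Between 64.5% and 77.4% of probes were well above background on an array, and no spot was saturated. After each array's own 75th percentile was subtracted, the level exceeded by only 0.1% of the tested probes lay 5.96 ± 0.18 (SD, n = 6) above it in the fertile group. In the subfertile group it lay 6.98 ± 0.17 (SD, n = 5) above it. That difference of 1.02 had a p of 0.0022 in a two-sided exact permutation test, the smallest that the 462 splits of the arrays can give (0.0043 adjusted over 4 percentiles). The 99th percentile differed by 0.45 (adjusted p = 0.0043), the 95th by 0.16 (adjusted p = 0.0058) and the median by 0.03 (adjusted p = 0.19) in the same exact permutation test. Fertile arrays with a known slide came from 3 slides scanned on 3 days, and subfertile arrays from 3 other slides scanned on 1 day, so scan day and group cannot be told apart. Of the markers of the labelled tissue, all 10 epithelial markers and the 8 stromal markers on the array could be tested. Epithelial markers were higher in the subfertile cows for 6 of 10 genes at the 75th percentile scaling and for 1 of 10 after quantile normalization, with list means of 1.21 to 2.09 in fertile and 2.05 to 2.57 in subfertile cows (log2 above the 75th percentile). Of the stromal markers, 2 of 8 were higher at the 75th percentile scaling (median -0.11), with list means of 4.35 to 5.07 in fertile and 4.04 to 4.61 in subfertile cows. After quantile normalization 1 of 8 was lower, COL1A2, a collagen chain (-0.71, limma adjusted p = 0.0031), the median was -0.40, and the list means did not overlap, at 14.85 to 15.83 in fertile and 14.35 to 14.84 in subfertile cows. Of 5 markers of ciliated cells, 3 were higher in both scalings: FOXJ1, CAPS and CCDC39 (list medians 1.22 and 1.14). TPPP3 (differences 0.26 and 0.06) and RSPH1 (1.13 and 1.08) did not pass in either. The list means overlapped, at -1.38 to -0.20 in fertile and -0.48 to 1.44 in subfertile cows at the 75th percentile scaling. After quantile normalization they were 9.15 to 10.27 and 9.92 to 11.81. The part of these cell types in the results below was not tested, and in bulk tissue fewer cells of a type and less RNA per cell cannot be told apart.

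**Figure D1:**
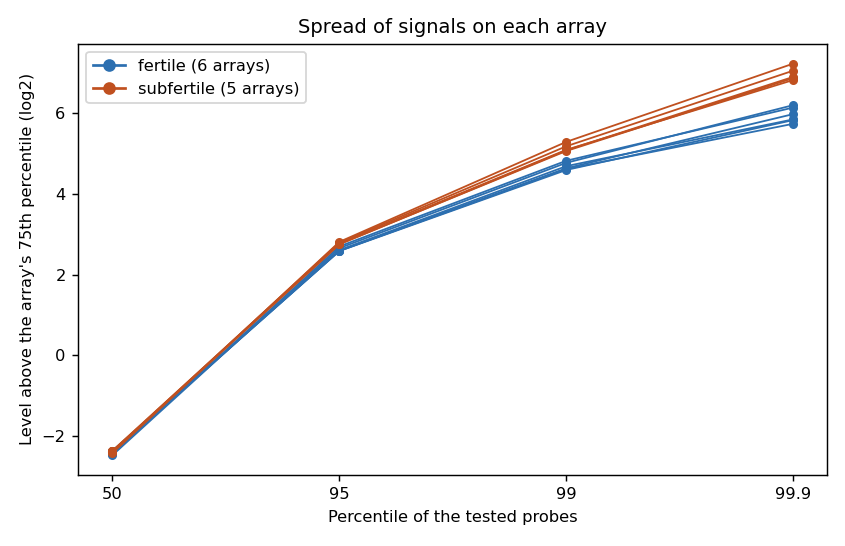
Level of the median, the 95th and 99th percentile and the level exceeded by 0.1% of the tested probes on each array, in log2 above that array's 75th percentile; each line is 1 cow. The subfertile arrays lay above the fertile ones at the upper percentiles, by 1.02 on average at the last of these.

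Probe sequences are shown here because a group of members behaved unlike the rest of the family. The array held 15 member probes that the files placed on the strand opposite to the RefSeq mRNA probes of the same gene, on the same chromosome. The clearest case was RPL10, a late-joining protein of the large subunit. An opposite-strand probe designed on a cDNA record (chrX:23718027-23718087, minus strand, build Btau_3.1) and a RefSeq probe (chrX:23718039-23718098, plus strand) cover the same stretch, and 49 bases of one, in capitals, are the reverse complement of 49 bases of the other:
RPL10 opposite strand: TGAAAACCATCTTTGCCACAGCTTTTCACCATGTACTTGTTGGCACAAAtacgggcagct
RPL10 same strand: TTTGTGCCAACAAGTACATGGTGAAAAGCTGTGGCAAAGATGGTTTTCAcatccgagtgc
In RPL37, a large subunit protein with a zinc finger, the opposite-strand probe (chr20:35786678-35787264, minus strand) and a RefSeq probe (chr20:35787244-35787301, plus strand) share 21 such bases:
RPL37 opposite strand: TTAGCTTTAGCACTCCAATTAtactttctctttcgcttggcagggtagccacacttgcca
RPL37 same strand: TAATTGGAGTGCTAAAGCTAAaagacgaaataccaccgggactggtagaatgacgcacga
Further opposite-strand probes without such a shared stretch lay in RPLP0 (chr17:65832578-65832637, plus strand), RPS12 (chr9:73073791-73073850, minus strand) and RPL12 (chr10:85572294-85572353, plus strand):
RPLP0 opposite strand: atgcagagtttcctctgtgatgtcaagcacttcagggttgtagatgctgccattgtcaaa
RPS12 opposite strand: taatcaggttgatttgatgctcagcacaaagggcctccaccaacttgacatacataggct
RPL12 opposite strand: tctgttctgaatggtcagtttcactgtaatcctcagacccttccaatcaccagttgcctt

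Ribosomal protein probes were higher in subfertile endometrium when arrays were scaled to their 75th percentile, and this was not so after quantile normalization. Of the 306 probes, 287 were well above background on at least 5 arrays and were tested. The other 19 were not, and 18 of these were designed on cDNA or EST records. With the 75th percentile scaling 187 of 287 probes were higher and 2 lower (limma, Benjamini-Hochberg adjusted p below 0.05 over 31877 probes), and the median difference was 0.60. Over all tested probes 14.8% were higher and 7.38% lower, with a median of 0.07. After quantile normalization, which gives every array the same distribution of values, 31 members were higher and 18 lower with a median of -0.02. The background there was 10.2% higher and 9.87% lower, and the members' 10.8% and 6.27% lay near or under it. With a trended robust variance in limma the members' shares were 17.1% higher and 9.41% lower, against a background of 10.4% and 10.1%. All 31 probes higher after quantile normalization were also higher at the 75th percentile scaling, 2 probes were lower in both, and 7 probes were higher at the 75th percentile scaling and lower after quantile normalization. In 173 of 287 probes the subfertile cows all lay above the fertile ones at the 75th percentile scaling, against a background of 9.65%. After quantile normalization this held for 41 of 287 probes, a larger share than the background of 6.61%. In 23 of 287 the subfertile cows then all lay below the fertile ones, against 1826 of all 31877 tested probes.

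The difference at the 75th percentile scaling followed probe brightness. Brightness was taken as the mean level over the 11 arrays. Members made up 158 of the 319 tested probes above the 99th percentile of brightness, or 49.5%. There 147 of 158 members (93.0%) were higher, with a median difference of 0.78. The 161 other probes of that class were higher in 117 cases (72.7%), with a median of 0.69. Between the 95th and 99th percentiles 26 of 70 members were higher (median 0.28), beside 27.8% of other probes (median 0.22). Between the 75th and 95th percentiles 3 of 29 members were higher (median 0.10), beside 13.1% of other probes (median 0.05). Below the 75th percentile 11 of 30 members were higher (median 0.15), beside 13.6% of other probes (median 0.05), and 10 of these 11 members were opposite-strand probes. After quantile normalization the members above the 99th percentile were higher in 13 and lower in 10 of 158 cases, with a median of -0.03, and the other probes of the class were higher in 24 and lower in 15 of 161 cases, with a median of -0.04. Quantile normalization gives the top ranks equal values on every array, and members made up 49.5% of this class. A median near 0 there was thus largely fixed in advance and does not show that bright members were alike in the groups. Splitting the members by brightness into 4 equal sets gave 17 of 72, 33 of 72, 65 of 71 and 72 of 72 probes higher from the dimmest to the brightest set at the 75th percentile scaling. With quantile normalization these sets had 14, 5, 6 and 6 probes higher.

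**Figure D2:**
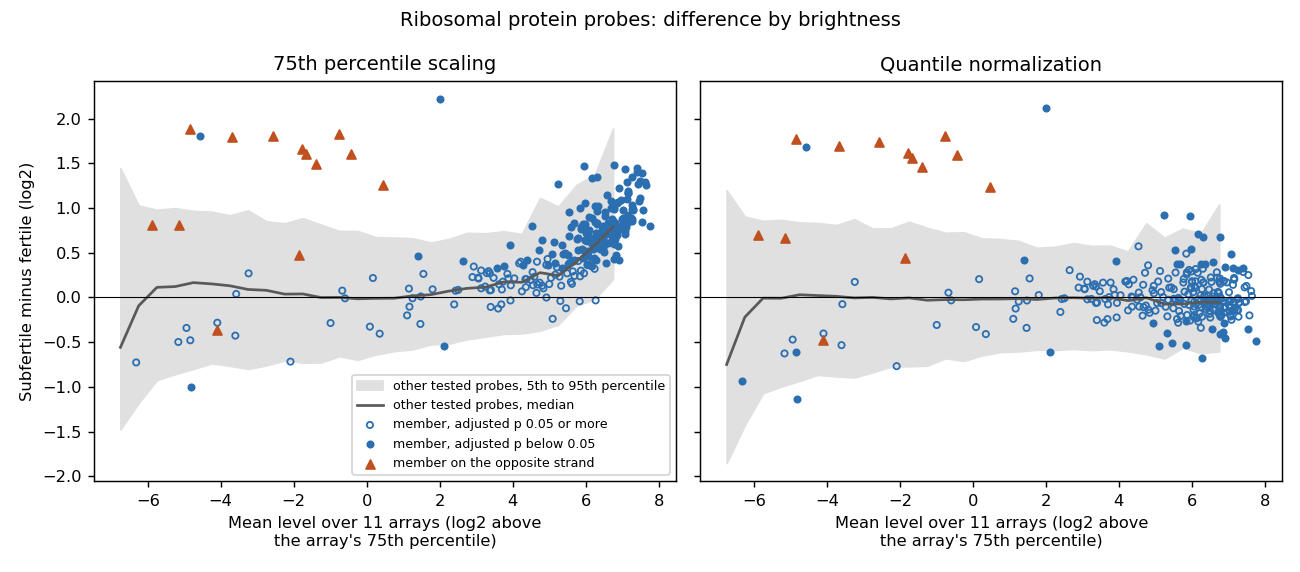
Subfertile minus fertile difference (log2) of each tested member probe against its mean level over 11 arrays, under both scalings; filled circles passed an adjusted p of 0.05, triangles are opposite-strand probes whatever their p, and the grey line and band are the median and the 5th to 95th percentile of other tested probes in bins of level. At the 75th percentile scaling members and other probes both rise at the bright end, and after quantile normalization the bright members lie around 0.

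The same pattern held among probes of one gene. In 73 genes with more than 1 tested probe off the opposite strand, the brightest probe had a larger difference than the dimmest in 63 at the 75th percentile scaling, by a median of 0.48, and in 37 after quantile normalization, by a median of 0.01. RPS6, the small subunit protein phosphorylated by S6 kinases, had 7 tested probes. Their differences ranged from -0.24 to 1.17 at the 75th percentile scaling, and from -0.54 to 0.28 after quantile normalization, where 2 were lower and none higher.

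Both subunits were higher at the 75th percentile scaling and near 0 after quantile normalization. At the 75th percentile scaling 101 of 160 large subunit probes (median 0.54), 76 of 113 small subunit probes (median 0.64) and 10 of 14 P-stalk probes (median 0.83) were higher. Only small subunit genes had lower probes, 2 in number. With quantile normalization the large subunit had 17 higher and 6 lower probes (median -0.01), the small subunit 13 higher and 12 lower (median -0.02), and the P stalk 1 higher and none lower (median -0.03). At an unadjusted p below 0.05, limma called 98 of the 287 members. The share of all tested probes at that threshold was not computed, so this count cannot be read against a background. Above the 99th percentile of brightness the medians at the 75th percentile scaling were 0.78 for the large and 0.75 for the small subunit. For such bright probes a median near 0 after quantile normalization was largely fixed in advance.

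Each cow's mean was then taken over the brightest tested probe of each gene. For the 45 large subunit genes it averaged 5.53 ± 0.12 (SD, n = 6) for fertile cows against 6.21 ± 0.18 (SD, n = 5) for subfertile cows, in log2 above the 75th percentile. For the 34 small subunit genes it was 6.21 ± 0.13 (SD, n = 6) and 6.99 ± 0.20 (SD, n = 5). For both subunits the lowest subfertile cow exceeded the highest fertile one. Among the subfertile cows, cow 5 was highest (6.48 and 7.30) and cow 1 lowest (6.01 and 6.78). After quantile normalization the large subunit mean was 16.28 ± 0.04 (SD, n = 6) and 16.25 ± 0.05 (SD, n = 5), the small subunit mean 17.02 ± 0.04 (SD, n = 6) and 16.98 ± 0.05 (SD, n = 5), and the groups overlapped. These means rest on bright probes, and quantile normalization gives the top ranks equal values on every array. The overlap and small SDs were thus largely fixed in advance and do not show that the groups were alike. The large minus small difference ran from -0.72 to -0.62 in fertile and from -0.82 to -0.76 in subfertile cows at the 75th percentile scaling, without overlap. After quantile normalization it ran from -0.78 to -0.70 and from -0.74 to -0.69, with overlap.

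**Figure D3:**
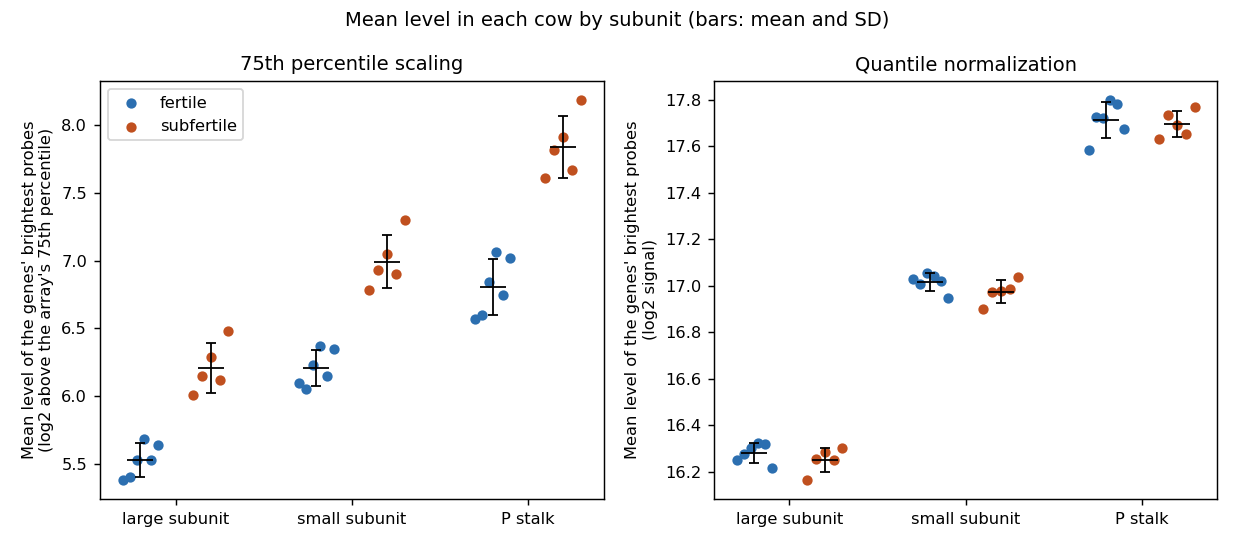
Mean level of the brightest tested probe of each gene in each cow, by subunit, under both scalings; points are cows, bars the mean and SD, and the axes do not start at 0. The groups are apart at the 75th percentile scaling and overlap after quantile normalization, where overlap of bright probes was largely fixed in advance. Levels of different subunits rest on different probes and are not to be compared.

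The P-stalk proteins, which recruit elongation factors to the ribosome, had the largest median at the 75th percentile scaling. The brightest RPLP0 probe had levels from 6.73 to 7.01 (median 6.87) in the fertile cows and 7.91, 8.13, 8.27, 8.0 and 8.38 in subfertile cows 1 to 5, a difference of 1.27 (SE 0.11, limma adjusted p = 8.4e-05). The groups did not overlap. Quantile normalized, the same probe ran from 17.68 to 17.99 in fertile and from 17.85 to 17.96 in subfertile cows, so the groups overlapped, and the difference was 0.11 (SE 0.09, limma adjusted p = 0.39). RPLP1 differed by 0.99 and RPLP2 by 0.84 at the 75th percentile scaling, and by -0.02 and -0.15 after quantile normalization, where neither passed the test.

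Among small subunit proteins, RPS3, which sits at the entry of the mRNA channel, changed sign between scalings. Its brightest probe ran from 7.10 to 7.66 (median 7.38) in fertile cows and was 7.96, 8.18, 8.31, 8.07 and 8.46 in subfertile cows 1 to 5, a difference of 0.80 (SE 0.13, limma adjusted p = 0.0024). After quantile normalization it ran from 18.33 to 18.53 in fertile and from 17.90 to 18.01 in subfertile cows, a difference of -0.49 (SE 0.08, limma adjusted p = 0.0036). In fertile cows 1, 3, 4 and 5 it had the identical value 18.53, and in cows 2 and 6 the identical value 18.33. Quantile normalization gives such fixed values to the brightest ranks, so this difference, its SE and its p rest on rank among the brightest probes. No overlap was seen in either scaling, with the subfertile cows above in the first and below in the second. RPSA, which also serves as a laminin receptor, differed by 1.19 and then 0.22, RPS6 by 1.17 and 0.20, RPS18 by 0.85 and -0.21, and RPS19 by 0.71 and -0.25. All 4 passed the test at the 75th percentile scaling and none after quantile normalization. RPS9 differed by 0.40 and 0.14 and passed in neither.

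Of the large subunit, RPL5 and RPL11, which bind the smallest ribosomal RNA of the large subunit and can restrain MDM2, differed by 1.22 and 1.01 at the 75th percentile scaling. After quantile normalization RPL5 was higher by 0.34 (SE 0.07, limma adjusted p = 0.010), while RPL11 differed by 0.18 and did not pass. Both probes are among the brightest, so these values rest on rank. RPL4, RPL13A and RPL19 differed by 0.78, 0.82 and 1.01 at the 75th percentile scaling, all past the test, and by -0.16, -0.11 and 0.22 after quantile normalization, none past it.

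By their brightest probe, 4 genes were higher in both scalings: RPS4X, RPL17, RPL5 and RPS2. RPS4X, the X-linked copy of a small subunit protein, ran from 6.15 to 6.68 (median 6.40) in fertile cows and was 7.68, 7.79, 7.94, 7.75 and 8.12 in subfertile cows 1 to 5, a difference of 1.43 (SE 0.12, limma adjusted p = 7.7e-05). After quantile normalization it ran from 17.10 to 17.33 in fertile and from 17.70 to 17.74 in subfertile cows, a difference of 0.48 (SE 0.08, limma adjusted p = 0.0030). Both scalings left the groups apart. Subfertile cows 3 and 4 had the identical quantile value 17.74. All 4 genes were above the 99th percentile of brightness. As for RPS3, their differences, SE and p after quantile normalization rest on rank among the brightest probes. RPL17, at the exit of the protein tunnel, differed by 1.34 and 0.67, and RPS2 by 1.35 and 0.31.

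**Figure D4:**
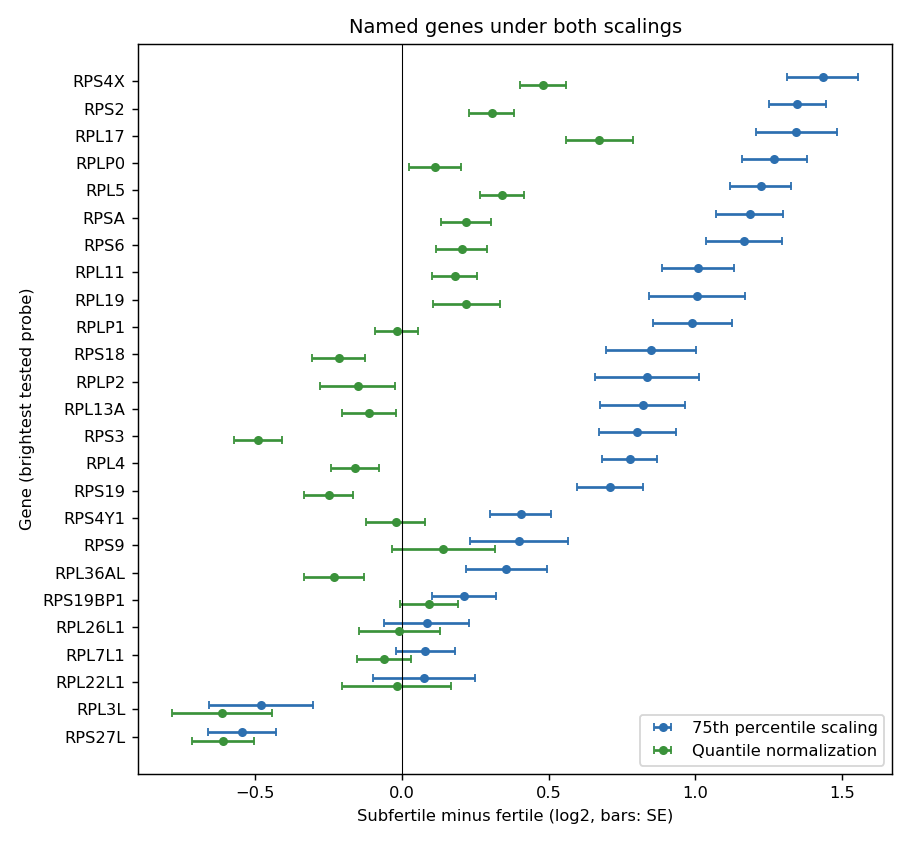
Subfertile minus fertile difference (log2, bars SE) of named genes under both scalings, by the brightest tested probe of each. Most differences move toward 0 or past it after quantile normalization; RPS27L is lower and RPS4X, RPL17, RPL5 and RPS2 are higher under both.

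RPS27L, a paralog of RPS27 induced by p53, was lower by its brightest probe under both scalings. It ran from 2.21 to 2.60 (median 2.31) in fertile cows and was 1.59, 1.87, 1.72, 1.77 and 2.10 in subfertile cows 1 to 5, a difference of -0.54 (SE 0.12, limma adjusted p = 0.0082). The groups did not overlap. After quantile normalization the difference was -0.61 (SE 0.11, limma adjusted p = 0.0041). Its other probes differed by -0.29 and -0.34 at the 75th percentile scaling and did not pass. The other lower probe was a dim EST probe of RPS29, at -1.0 (SE 0.26, limma adjusted p = 0.020), well above background in 9 of 11 arrays. With normexp background correction that probe was higher instead, by 0.66 (limma adjusted p = 0.0035). That correction also took all tested probes from 4716 to 14920 of 31877 higher, and their median from 0.07 to 0.33. At the 75th percentile scaling 2 bright RefSeq probes of RPS29 were higher by 1.06 and 0.69.

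Of the remaining paralogs, RPL3L, the form of RPL3 known from striated muscle, was dim and differed by -0.48 (limma adjusted p = 0.074) and by -0.61 after quantile normalization (limma adjusted p = 0.028), but by 0.69 with normexp (limma adjusted p = 0.0036). By their brightest probes RPL7L1, RPL26L1 and RPS19BP1 differed by 0.08, 0.08 and 0.21 and did not pass in either scaling. The opposite-strand probe of RPS19BP1 was higher in both, by 0.81 and 0.66 (limma adjusted p = 0.0059 and 0.018). RPL36AL differed by 0.36 and -0.23, neither past the test. RPS4Y1, a name of a Y-linked gene in other species whose probe the files place on chromosome 23, differed by 0.41 (limma adjusted p = 0.018) and by -0.02. RPL10L never rose well above background. RPL22L1 had 4 tested probes that did not move together. One was higher by 2.22 (SE 0.54, limma adjusted p = 0.014), or 4.65-fold, and the brightest differed by 0.08. In the first, 4 fertile cows lay between -0.15 and 0.65, fertile cows 5 and 2 at 2.54 and 2.63, and subfertile cows 1 to 5 at 3.64, 2.95, 3.84, 2.75 and 2.88, without overlap. Fertile cows 2 and 5 shared a slide and a scan day, and the part of slide in this split was not tested.

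Opposite-strand probes behaved alike under both scalings, and this grouping was made after their values were seen, so it is given without a test of its own. Of the 15, 13 were tested and 10 were higher at the 75th percentile scaling (median 1.61), and 10 after quantile normalization (median 1.56). Same-strand members were higher in 171 of 260 cases (median 0.59) and in 20 of 260 (median -0.02). All 13 were dimmer than the 75th percentile of tested probes, where none of the 14 same-strand members was higher in either scaling. By the same strand rule 60 tested probes of other genes lay on the opposite strand, of which 21 were higher (median 0.40) at the 75th percentile scaling and 18 (median 0.30) after quantile normalization.

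The opposite-strand probe of RPL10 printed above ran from -1.64 to -0.77 (median -1.21) in fertile cows and was 0.55, 0.35, 0.80, -0.27 and 0.73 in subfertile cows 1 to 5, a difference of 1.61 (SE 0.22, limma adjusted p = 1.0e-03), or 3.04-fold. The groups did not overlap. Its same-strand counterpart ran from 3.34 to 4.0 in fertile and from 3.58 to 3.83 in subfertile cows, overlapping, with a difference of 0.09 (SE 0.12, limma adjusted p = 0.63). With quantile normalization the pair differed by 1.59 and -0.08. In RPL37 the printed opposite-strand probe was higher by 1.81 (SE 0.19, limma adjusted p = 2.7e-04) and its same-strand counterpart differed by 0.15 (limma adjusted p = 0.37). The opposite-strand probes of RPLP0, RPS12 and RPL12 were higher by 1.5, 1.61 and 1.66, and after quantile normalization by 1.46, 1.56 and 1.61. Those of RPL9, RPL27 and RPL3, which with RPL37, RPL22L1 and a chromosome X probe of RPL35A (1.80) had the largest differences among the member genes, were higher by 1.88, 1.83 and 1.79. The RPL35A probe lay on another chromosome than the gene's RefSeq probes. The opposite-strand probes of RPL31, RPL6 and RPL28 differed by -0.37, 0.48 and 0.81 and did not pass. The labels do not state which strand of the RNA these probes would detect.

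**Figure D5:**
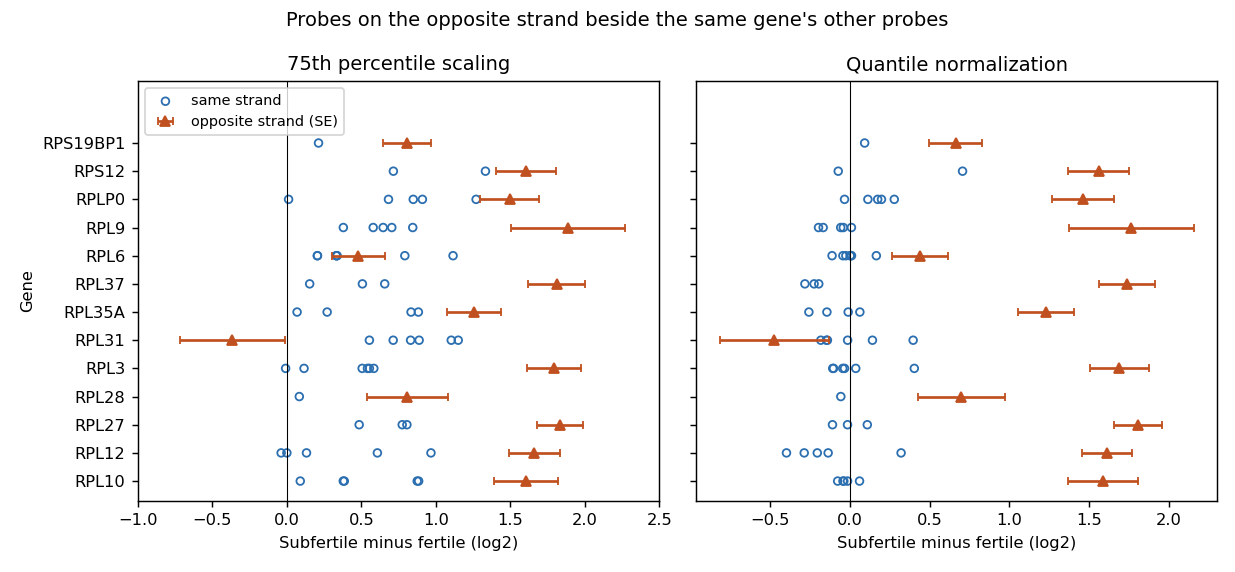
Subfertile minus fertile difference (log2) of tested opposite-strand probes (triangles, bars SE) beside the same-strand probes of the same gene (circles), under both scalings. Most triangles lie between 1.2 and 1.9 in both panels, while the circles move to around 0 after quantile normalization.

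Genes that work with the ribosome were read from lists, each gene by its brightest probe, beside the 14.8% higher and 7.38% lower of all tested probes at the 75th percentile scaling and the 10.2% and 9.87% after quantile normalization. Among 16 mRNAs of the translation machinery with the same kind of pyrimidine tract, 8 were higher and none lower at the 75th percentile scaling (median 0.42), and 1 was higher after quantile normalization (median 0.06). EEF1A1, which delivers aminoacyl-tRNA, differed by 1.33 and 0.09. FAU, which encodes a small subunit protein and escapes the naming rule, was higher by 1.08, and differed by 0.12 after quantile normalization. Of 47 tested genes of ribosome biogenesis 9 were higher and 5 lower (median 0.14), then 6 and 6 (median 0.08). NOP10, a part of the pseudouridylation complex, was lower in both (differences -0.87 and -0.90). Other parts of that complex went the other way. DKC1 was higher in both (0.42 and 0.40), while GAR1 (0.33 and 0.28) and NHP2 (0.14 and 0.08) did not pass in either. Of 14 RNA polymerase I genes 2 were higher and 1 lower in both scalings. Of 16 genes of mTOR signalling and S6 kinases none was higher and 2 were lower in both: LARP1 (differences -0.50 and -0.62) and EEF2K, the kinase of elongation factor EEF2 (differences -0.60 and -0.62). Of 77 mitochondrial ribosomal proteins 15 were higher and 2 lower (median 0.07), then 8 and 5 (median 0.02), and 1 of the 77 was above the 99th percentile of brightness. Of 17 proliferation genes none was higher and 1 lower in both scalings. Their medians were -0.53 and -0.63, with 4 of 17 differences above 0 in each, beside medians of 0.07 and -0.01 over all tested probes. The list means overlapped, at -1.54 to -0.38 in fertile and -1.77 to -1.17 in subfertile cows at the 75th percentile scaling.

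The counts changed with array scale and with scan day. Scaling to the 10 spike-in probes left 0 of 287 members past the limma threshold (9 at an unadjusted p below 0.05), with a median of -0.52. Over all 31877 tested probes it left 3 higher and 174 lower, with a median of -1.05. The spike-in level itself ran from 7.31 to 10.56 in fertile and from 8.16 to 8.68 in subfertile cows, and its level minus the 75th percentile was 1.12 higher in the subfertile group (exact permutation test, adjusted p = 0.21). The fertile level was split, with cows 4 and 6 at 7.60 and 7.31 and the other fertile cows between 10.01 and 10.56. Spike-in scaling was not repeated without cows 4 and 6, so their part in its results was not tested. With scan day as a random block 85 members were higher and none lower at the 75th percentile scaling (186 at an unadjusted p below 0.05 by limma), and 10 higher and 1 lower after quantile normalization. The members' medians were then 0.58 and -0.01. Of all 31877 tested probes that block left 786 higher and 191 lower at the 75th percentile scaling, and 342 and 187 after quantile normalization. No such background was computed for the unadjusted counts of 9 and 186 members. Among the named genes, the calls of RPLP2, RPS18, RPL13A, RPL19, RPS27L, RPS29, RPS4Y1, RPL9 and RPL22L1 were lost with that block, with limma adjusted p from 0.054 to 0.17. Between 2 fertile slides of 2 cows each, members above the 99th percentile of brightness differed by a median of -0.03 at the 75th percentile scaling. Fertile cows 4 (another slide) and 6 (slide unknown) were not in that comparison. Their means over the brightest probes of all member genes were 6.02 and 5.99. In the other fertile cows these means ran from 5.72 to 5.87, and in subfertile cows from 6.39 to 6.89. The part of slide in this was not tested. Leaving out fertile cow 1 or subfertile cow 2 took the lower count after quantile normalization from 18 to 11. Leaving out 1 fertile cow also brought 3 genes past the limma threshold at the 75th percentile scaling: RPS9 without cow 3 (0.50, adjusted p = 0.048), RPL3L without cow 2 (-0.59, adjusted p = 0.023) and RPL36AL without cow 6 (0.42, adjusted p = 0.045).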

How the data were processed

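Endometrial RNA of 11 cows was hybridised in 1 colour (Cy3) to Agilent arrays. The authors deposited scanner files of spot intensity. The submitters' processing notes name Agilent's Feature Extraction, version 10.5.1.1; its processed signal is background-subtracted and not normalized between arrays. The deposited value table holds log2 values that follow the processed signal scaled to the 75th percentile and centred on each probe's median, a scale found from the values and not stated. It was used as an alternative. One fertile cow's array (cow 6) has no header block and gene names out of register, so names were joined by probe. Coordinates are those of the files, build Btau_3.1 per the file headers.

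Spots of 1 probe were averaged, outlier spots left out, and log2 values taken minus each array's 75th percentile, or quantile normalized. Probes well above background on at least 5 of 11 arrays (31877) were tested with limma 3.58.1 in R 4.3.3 (lmFit, eBayes, Benjamini-Hochberg over all 31877), threshold 0.05; the fit was tested on simulated data. Array percentiles used exact permutation tests. A gene with several probes is given by its brightest tested probe. Named genes were the 6 with the largest difference past the threshold in each direction (2 lower genes existed), up to 8 past it in one direction under both scalings, 14 fixed genes and all paralogs; a few others (RPL10, RPL12, RPS12, RPL31, RPL6, RPL28, RPS29's RefSeq probes) were named after their values were seen. Members and lists were chosen with earlier results of these data known. The number of arrays limits the precision. P-values measure the spread between arrays of 1 cow each, which also holds slide and, among fertile cows, scan day. Arrays of one slide or one scan day were correlated (limma consensus correlation 0.45 and 0.31 at the 75th percentile scaling). One gene outside the naming rule is not reported here.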

Additional observations from a re-analysis of the deposited data

Results flagged for a closer look

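The opposite-strand probe of RPL9 had 1 subfertile cow apart from the other 4 in its group: cow 1 was at -3.19 and the nearest other cow at -3.88, in log2 above the 75th percentile. Its gap was 0.804 of the group's whole range. It was the 1 case among 88 groups of values examined in this way, and chance gives such a gap in about 1 of 20.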

How the results depend on the processing

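Values below are member probes higher and lower at the 75th percentile scaling, 187 and 2 of 287, and after quantile normalization, 31 and 18. The cause of each change was not tested unless fewer probes entered. At the 75th percentile scaling the lower count was 4 with normexp, 1 with only probes above background on all arrays, 1 with slide as a random block and 1 at a threshold of 0.01. The lower share of all tested probes was 6.78% with normexp, 8.18% with only probes above background on all arrays and 3.00% with the slide block. At a threshold of 0.01, 714 of all 31877 probes were lower. Median centring gave 6 lower, 95th percentile scaling 7, and cyclic loess 108 higher and 9 lower (median 0.22). The lower share of all tested probes was 10.82% with median centring, beside 2.09% of members. With 95th percentile scaling it was 11.99%, beside 2.44% of members. With cyclic loess 10.89% of all tested probes were higher and 10.36% lower, beside 37.63% and 3.14% of members. Scan day as a random block gave 85 and 0. Spike-in scaling gave 0 and 0 by limma (9 at an unadjusted p below 0.05; median -0.52). Quantile normalization gave 31 and 18 (median -0.017). With 1 probe for each gene, 67 of 82 were higher and 1 lower (median 0.78). After quantile normalization, 1 probe for each gene gave 4 and 5, a threshold of 0.01 gave 14 and 6, slide as a random block 21 and 9, scan day as a random block 10 and 1, and trended robust variance 49 and 27. Over all 31877 probes a threshold of 0.01 gave 1053 and 877. The shares of all tested probes were 5.38% and 4.15% with the slide block and 1.07% and 0.59% with the scan day block. With trended robust variance they were 10.4% and 10.1%, beside 17.1% and 9.41% of members. Leaving out 1 cow at a time gave 169 to 188 higher and 2 to 4 lower (median 0.53 to 0.64) at the 75th percentile scaling, and 23 to 35 higher and 11 to 20 lower (median -0.03 to 0.01) after quantile normalization. Replicate numbers occur in both groups, but same-numbered cows did not deviate together (correlations -0.21 to 0.22) and are not known to be paired. With the replicate block 161 members were higher and 3 lower at the 75th percentile scaling, and 18 higher and 13 lower after quantile normalization. The shares of all tested probes were 9.53% and 5.41%, then 5.67% and 5.97%. The higher RPL22L1 probe (2.09, limma adjusted p = 0.066) and RPS4Y1 (0.40, limma adjusted p = 0.051) were not called with this block at the 75th percentile scaling. Without the opposite-strand probes, an alternative chosen after seeing the data, the counts were 177 and 2, and 21 and 18. Over all non-control probes the median minus the 75th percentile differed by 0.10 (exact permutation test, adjusted p = 0.0065), against 0.03 over tested probes. Single genes turned sign as follows. With 95th percentile scaling RPL7L1 was at -0.042, the brightest RPL22L1 probe at -0.046 and RPL26L1 at -0.037. With cyclic loess they were at -0.083, -0.023 and -0.019, and RPL36AL at -0.020. With median centring RPL7L1 was at -0.016, RPL22L1 at -0.020 and RPL26L1 at -0.011. With normexp RPS29 was at 0.66, RPL3L at 0.69, RPL22L1 at -0.0069 and RPL26L1 at -0.025. With the replicate block RPL22L1 was at -0.025, and when 1 cow was left out it ran from -0.028 to 0.19. With quantile normalization RPLP1 was at -0.018, RPLP2 -0.15, RPS3 -0.49, RPS18 -0.21, RPS19 -0.25, RPL4 -0.16, RPL13A -0.11, RPL7L1 -0.061, RPL22L1 -0.017, RPL26L1 -0.0091, RPL36AL -0.23 and RPS4Y1 -0.020. Spike-in scaling subtracts 1 value per array, so the differences of all 287 members moved together, by -1.38 to -0.98 (median -1.12). With it RPLP1 was at -0.13, RPLP2 -0.28, RPS3 -0.32, RPS9 -0.72, RPS18 -0.27, RPS19 -0.41, RPL4 -0.34, RPL11 -0.11, RPL13A -0.30, RPL19 -0.11, RPL7L1 -1.04, RPL22L1 -1.04, RPL26L1 -1.03, RPL36AL -0.76, RPS4Y1 -0.71 and RPS19BP1 -0.91. With slide as a random block RPS29 and RPS4Y1 lost their calls (limma adjusted p = 0.071 and 0.059). Probes near background limit what can be said of the dim paralogs.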
